A study of Homo sapiens with 19 samples.

Results

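SKBR3, a human cell line established from breast cancer that carries extra copies of ERBB2, was compared after prolonged low oxygen and without treatment. The hypoxic group held 4 arrays of cells kept in 1% oxygen for 7 days and then sorted as CD44-/lo, the fraction with little or no surface CD44, a hyaluronan receptor. The control group held 3 arrays of untreated cells, for which the labels name no sort, so an effect of low oxygen and an effect of sorting cannot be told apart. These 7 of the 19 arrays in the series were chosen by their titles. For reference, 4 arrays of CD44-/lo cells sorted after 60 nM epirubicin for 3 days and 4 arrays of CD44+/hi cells sorted from the same hypoxia were also used. Each array took 200 ng of RNA. The samples are labelled biological replicates, but nothing says that they were separate cultures, so a p-value here reflects variation among these samples, which may be technical.

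Cells sense oxygen through prolyl hydroxylases that mark the HIF alpha subunits for destruction. When oxygen falls, HIF accumulates, binds short elements near its targets and raises glucose uptake, glycolysis, angiogenic factors and collagen-modifying enzymes, while respiration is held back. Long hypoxia can also slow the cell cycle, mainly by blocking entry into S phase.

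Signals are MAS5 intensities, in which every array was scaled to a common trimmed mean of 100, and values are given in the order of array number. Fold changes are differences of mean log2(signal + 4.2), given with standard errors, and where a group's signals lie near 4.2 their size is set largely by that offset. A gene was called at an adjusted p under 0.05 in limma, over the 12925 genes with a signal of at least 16.9 on 3 arrays of the series. A gene below that level in untreated cells entered the test only through groups where it was high. This holds for every tested gene with all untreated signals under 16.9, also where it is not repeated, such as ACTA1, ENO2, INHBA, MMP2 and KDR. The number of arrays limits the precision. Hypoxic CD44lo arrays correlated with each other at r = 0.919 to 0.960 across genes and untreated arrays at 0.978 to 0.984, so the hypoxic group was the more variable. Hypoxic CD44lo array 2 stood apart: changes in many oxygen-response and replication genes were smaller there. Without it, 3762 genes were called instead of 2903. The hypoxic CD44hi array of the same number also had the smallest list means of its group, 0.53 against 1.00 to 1.19 for glycolysis and -0.94 against -1.49 to -2.04 for replication (log2 over untreated). The mean hybridisation control signal was 2035 on CD44lo array 2, within the untreated range of 1995 to 2356, and 2598 to 2816 on the other hypoxic CD44lo arrays. The 3' to 5' signal ratio of ACTB, a measure of RNA integrity, was 1.31 ± 0.08 (SD, n = 4) in hypoxic CD44lo and 1.24 ± 0.03 (SD, n = 3) in untreated cells (two-sided exact permutation p = 0.2, smallest possible 0.0286), and CD44lo array 2 was lowest of its group at 1.23. The part of these measures in the results was not tested. Of 10 tested genes listed to check the line, 1 was called higher and 1 lower. ESR1 among them was listed as absent or low in the line and was not called. TFAP2B was the one called lower (log2 -4.11). CDH1, called higher, was listed as present in the line but read low on every array, with signals given below. KRT19 and ERBB2 were high in both groups. KRT19, a luminal keratin, read 3569, 3264 and 3944 in untreated and 4746, 4015, 4536 and 4968 in hypoxic cells. ERBB2 read 3384, 3233 and 4013 in untreated and 2818, 3359, 3192 and 2364 in hypoxic cells. Neither was called, although ERBB2 was called lower after quantile normalization.

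Of the 12925 genes tested, 2903 (22.5%) were called between hypoxic CD44lo and untreated cells, 1387 higher (10.7%) and 1516 lower (11.7%). At least 2-fold changes were found for 772 higher (5.97%) and 752 lower (5.82%) genes, and the median log2 fold change over all genes was 0.02. The count of calls was 1891 without hypoxic CD44lo array 4, 1625 without untreated array 1 and 1812 without untreated array 2. A total of 1343 genes kept their call and direction whichever of the 7 arrays was left out. Of 900 members of 59 gene lists, 68 had no probe set of their own here and 87 lay below the filter. Of the 745 tested members 381 were called, 179 higher and 202 lower. These counts describe lists that were chosen with earlier results known and carry no test of their own.

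**Figure D1:**
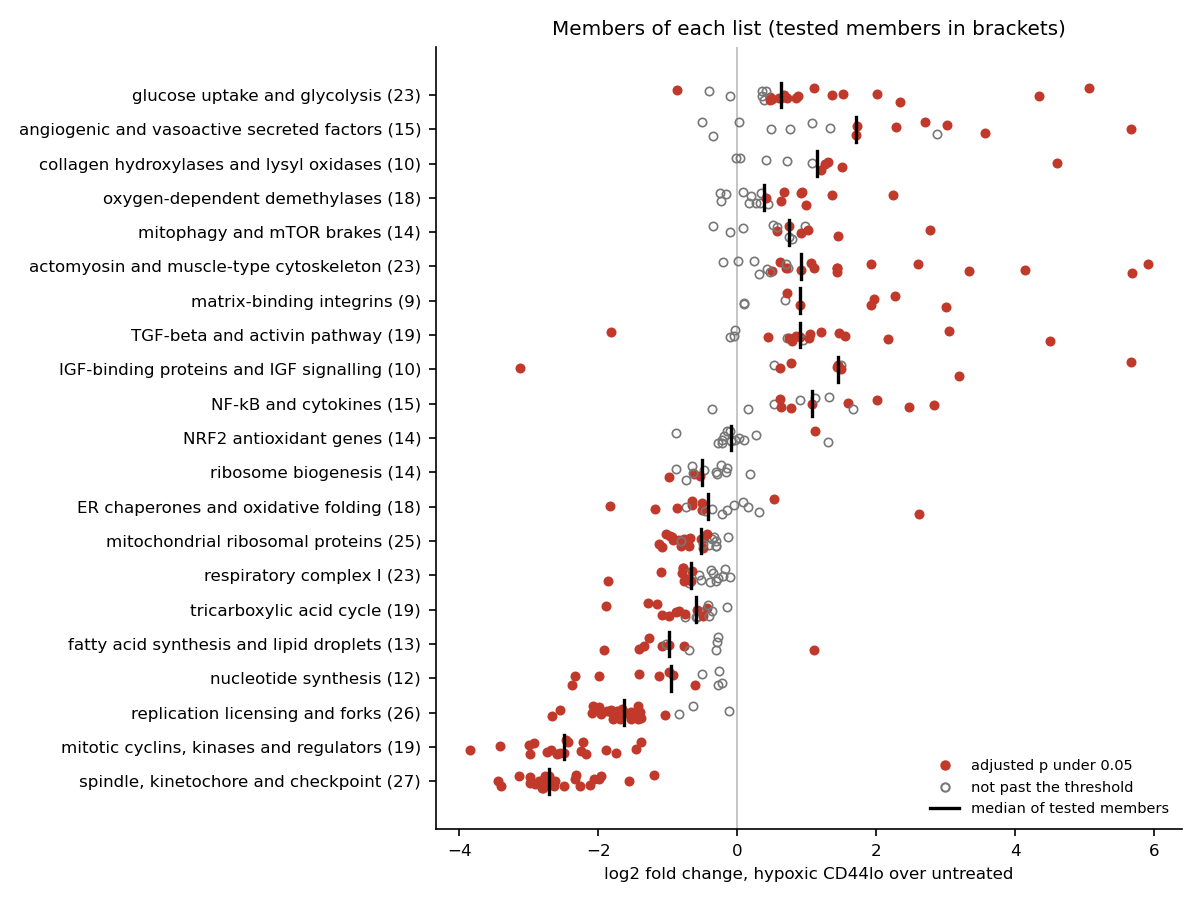
Each point is 1 tested gene of a list, placed by its log2 fold change (hypoxic CD44lo over untreated, x axis); filled points passed an adjusted p of 0.05 in limma, open points did not, and black bars are list medians. The lowest medians belong to the replication (-1.63), mitotic (-2.50) and spindle (-2.72) lists, while the angiogenic list has a median of 1.71 and the actomyosin list 0.92.

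Single genes of the oxygen-sensing machinery changed in both directions. EGLN3, a HIF prolyl hydroxylase that HIF induces, read 84.7, 46.5 and 60.3 on the untreated arrays and 2163, 802, 1453 and 1263 on the hypoxic CD44lo arrays. All hypoxic arrays lay above all untreated arrays, a rise of 20.2-fold (log2 4.34 ± 0.32, adjusted p = 3.44e-08). EGLN1, the main hydroxylase acting on HIF1A, rose by log2 1.21 ± 0.19. EGLN2, the remaining family member, fell from 29.4, 38 and 28.6 to 2.4, 13.1, 6.1 and 14.8, a log2 difference of -1.56 ± 0.39 between groups that did not overlap. HIF1A transcript, which codes for the subunit controlled mainly through protein stability, read 455, 484 and 430.1 against 402, 348, 249.7 and 238. Every hypoxic array was lower, yet the difference missed the threshold (log2 -0.59 ± 0.22, adjusted p = 0.057), and it passed without hypoxic CD44lo array 1 or 2. EPAS1, which encodes HIF2 alpha, differed by log2 0.22 ± 0.13 and was not called. Of the 8 tested members of this list, 2 were called higher, 1 lower and 5 not called, beside 10.7% higher and 11.7% lower over all genes tested.

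Glucose transport and glycolysis rose widely: 16 of 23 tested genes were called higher and 1 lower, with a median log2 fold change of 0.62 against 0.02 over all genes. The number higher was 13 to 16 when any 1 array was left out. SLC2A3, a high-affinity glucose transporter, read 16.4, 23 and 21.7 in untreated cells and 1740, 177, 1125 and 1226 in hypoxic CD44lo cells. All hypoxic arrays were above the untreated range, but array 2 was far below the other hypoxic arrays. The rise was 33.4-fold (log2 5.06 ± 0.63, adjusted p = 1.88e-05). SLC2A1, the widespread glucose transporter, already had signals of 1381, 1170 and 1100 without treatment and reached 3548, 2323, 3254 and 3515, a rise of log2 1.36 ± 0.16. PFKFB3 and PFKFB4 make and break fructose 2,6-bisphosphate, an activator of glycolysis. PFKFB3 read 434, 412 and 549 in untreated and then 2141, 1260, 1840 and 2492 in hypoxic cells (log2 2.02 ± 0.20), and PFKFB4 rose by log2 2.34 ± 0.41. Among isoenzymes, ENO2, an enolase of neurons and hypoxic cells, read 1.4, 8.4 and 1.2 in untreated against 108, 30.5, 277 and 428 in hypoxic cells, lowest on array 2 (log2 4.35 ± 0.76). ALDOC, an aldolase, rose by log2 1.52 ± 0.21. PFKM, the muscle phosphofructokinase, was lower by log2 -0.87 ± 0.26; its groups overlapped at array 1, and the call was lost without hypoxic CD44lo array 4, untreated array 2 or untreated array 3. GAPDH and LDHB were not called (log2 0.42 ± 0.20 and -0.41 ± 0.16). Quantile normalization brought both past the threshold, GAPDH also passed in a fit of these 7 arrays alone and when arrays were blocked by number, and LDHB without hypoxic CD44lo array 2.

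Glycogen enzymes moved the same way in 5 of 8 tested genes, with 0 called lower. GBE1, which makes the branches of glycogen, read 119.6, 112 and 58.9 in untreated against 342, 261, 479.7 and 358 in hypoxic cells (log2 1.88 ± 0.30). PYGL, a phosphorylase that releases glucose from glycogen, rose by log2 1.54 ± 0.23, and PPP1R3B, which targets a phosphatase to glycogen, by log2 1.26 ± 0.24. Without hypoxic CD44lo array 3, untreated array 1 or untreated array 2, 3 members of this list remained called. In contrast, CA12, a membrane carbonic anhydrase often listed as hypoxia-induced, was lower. It read 544, 615 and 767 in untreated cells and 529.5, 189.6, 178 and 144 in hypoxic CD44lo cells, where array 1 was just under the untreated range and arrays 2 to 4 were far below it (log2 -1.48 ± 0.34, adjusted p = 0.00449). CA9, another carbonic anhydrase, had no probe set of its own here.

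Secreted angiogenic and vasoactive factors were called higher for 7 of 15 tested genes and lower for 0, with a median of 1.71. IGFBP3, which binds insulin-like growth factors, read 17.7, 15.7 and 29.1 in untreated against 1787, 614, 1201 and 1746 in hypoxic cells, a rise of 50.7-fold (log2 5.66 ± 0.42, adjusted p = 3.44e-08). VEGFA, the principal angiogenic growth factor, read 251, 236 and 225 without treatment and 2262, 704, 1802 and 2084 after hypoxia (log2 2.70 ± 0.34). No array of either gene overlapped the other group, and hypoxic array 2 was the lowest hypoxic array for both. The vasodilator peptide gene ADM rose by log2 3.56 ± 0.45, STC1, a secreted glycoprotein, by log2 3.02 ± 0.37, EDN2, an endothelin, by log2 2.29 ± 0.33, and VEGFC, a lymphatic growth factor, by log2 1.72 ± 0.35. ANGPTL4, which inhibits lipoprotein lipase, read 8.5, 1.3 and 27.6 in untreated against 229, 5.8, 136 and 252 in hypoxic cells. Array 2 lay within its untreated range, and the difference of log2 2.88 ± 1.25 was not called (adjusted p = 0.104), though it was called without that array.

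**Figure D2:**
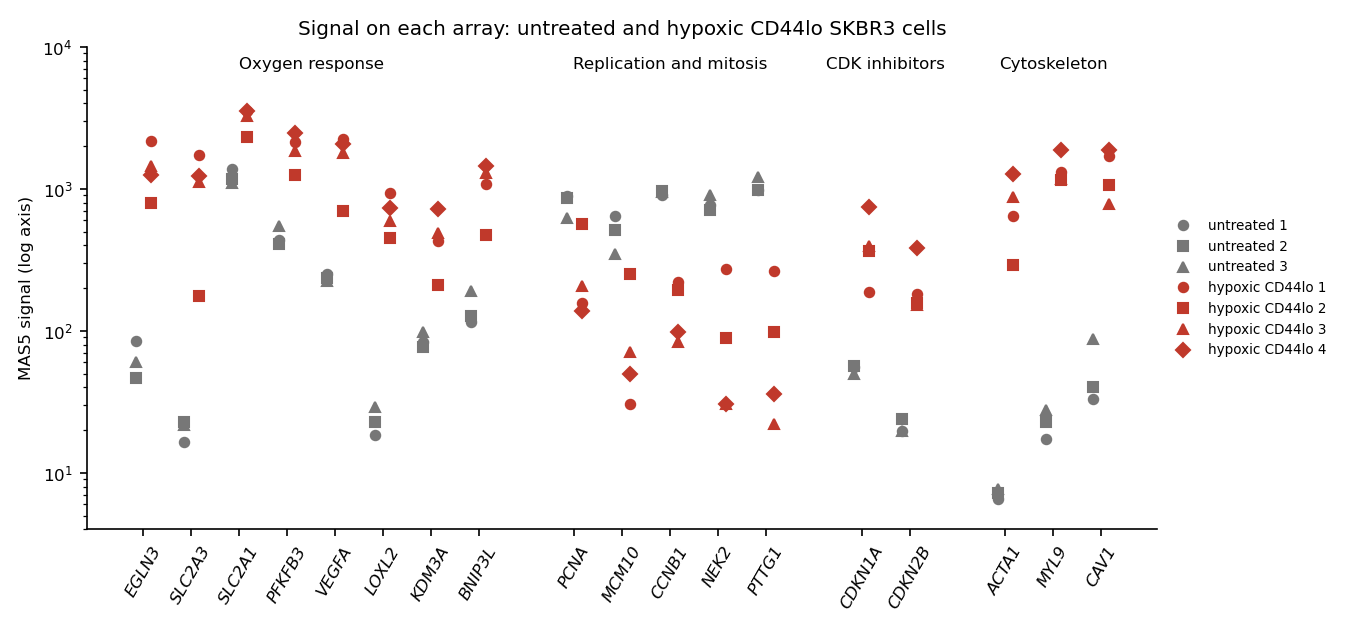
Points are MAS5 signals on a log axis for each of the 3 untreated (grey) and 4 hypoxic CD44lo (red) arrays, with marker shapes giving the array number. For EGLN3 the hypoxic arrays sit at 802 to 2163 and the untreated arrays at 46.5 to 84.7, and for PTTG1 the order is turned, at 22 to 264 and 981 to 1216.

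Enzymes that modify collagen use oxygen as a substrate, and 5 of 10 tested were called higher, with a median of 1.14. LOXL2, an amine oxidase that cross-links collagen, read 18.4, 22.7 and 29.3 in untreated against 944, 451, 595 and 738 in hypoxic cells. Its rise of 24.2-fold (log2 4.60 ± 0.26, adjusted p = 1.01e-09) left array 2 lowest of the hypoxic arrays and still far above the untreated range. The lysyl hydroxylases PLOD2 and PLOD1 rose by log2 1.51 ± 0.30 and 1.30 ± 0.25. The catalytic prolyl hydroxylase subunits P4HA1 and P4HA2 rose by log2 1.27 ± 0.20 and 1.21 ± 0.26, the latter not when all its probe sets were averaged.

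Oxygen-dependent demethylases of histones and DNA were called higher for 8 of 18 tested genes, with a median of 0.38 and 0 lower. KDM3A, which removes methyl groups from histone H3 lysine 9, read 83.8, 76.6 and 98.5 in untreated against 432, 209, 490.4 and 719.6 in hypoxic cells (log2 2.25 ± 0.34, adjusted p = 0.00011). KDM4B, another demethylase of that residue, rose by log2 0.92 ± 0.22 with array 2 inside the untreated range. TET1, which oxidises methylcytosine, read 9.8, 7.4 and 11.1 in untreated against 55.6, 33.3, 26.2 and 17.6 in hypoxic cells, low signals that nevertheless did not overlap (log2 1.37 ± 0.36). Its call was lost without untreated array 2. The list count depended on single arrays, with 5 called without hypoxic CD44lo array 3, hypoxic CD44lo array 4 or untreated array 3, 4 without untreated array 2 and 3 without untreated array 1.

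The table of RefSeq promoters (GRCh38.p14) held 250 bases before the start for 10448 of the tested genes. The core of the HIF-binding element, ACGTG or GCGTG on either strand, occurred in 28 of 38 promoters of genes called higher in the lists of oxygen sensors, glycolysis, secreted factors, collagen enzymes, demethylases and mitophagy. It occurred in 19 of 37 promoters of uncalled members of those lists, in 56.3% of all tested genes and in 43.1% of all 27305 promoters in the table. Among all tested genes the share was 54.3% of those called higher and 59.4% of those called lower, and it was 14 of 20 for replication genes and 24 of 40 for mitotic and spindle genes called lower. A CACGTG counts as a match on each strand. The promoters of the strongest risers of these lists with an entry in the table show the range, with matches in capitals. SLC2A3 and LOXL2 had no entry used here. IGFBP3 lies at chr7:45921273-45921522 (minus strand), ENO2 at chr12:6914330-6914579 (plus strand) and EGLN3 at chr14:33951075-33951324 (minus strand):
IGFBP3: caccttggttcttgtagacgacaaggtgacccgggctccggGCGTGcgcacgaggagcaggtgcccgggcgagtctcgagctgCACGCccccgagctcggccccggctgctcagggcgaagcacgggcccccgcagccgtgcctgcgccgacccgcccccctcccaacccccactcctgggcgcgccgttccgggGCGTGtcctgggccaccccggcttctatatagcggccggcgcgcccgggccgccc
ENO2: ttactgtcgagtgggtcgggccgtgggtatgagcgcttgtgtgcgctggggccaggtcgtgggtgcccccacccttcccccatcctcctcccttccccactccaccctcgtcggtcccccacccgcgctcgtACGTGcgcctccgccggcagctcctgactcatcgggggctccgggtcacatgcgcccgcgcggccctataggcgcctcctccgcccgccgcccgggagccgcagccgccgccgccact
EGLN3: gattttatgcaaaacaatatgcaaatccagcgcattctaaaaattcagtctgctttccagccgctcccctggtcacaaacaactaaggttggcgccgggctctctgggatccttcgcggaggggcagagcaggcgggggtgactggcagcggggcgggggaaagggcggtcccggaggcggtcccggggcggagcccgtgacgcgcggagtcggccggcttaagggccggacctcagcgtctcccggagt
IGFBP3 held 3 matches, ENO2 held 1, at 114 bases from its last base to the start, and EGLN3 held 0 in this window. A match is a string of letters, not a measured binding site.

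Genes of mitophagy and genes of mitochondrial respiration differed in direction. BNIP3L and BNIP3 encode outer membrane proteins that mark mitochondria for autophagy. BNIP3L read 116, 127 and 192 in untreated against 1089, 474, 1287 and 1456 in hypoxic cells (log2 2.77 ± 0.34), and BNIP3 rose by log2 1.45 ± 0.21. Of the 14 tested genes of mitophagy and mTOR restraint 6 were called higher, but 2 without hypoxic CD44lo array 4, untreated array 1 or untreated array 2, and 3 without hypoxic CD44lo array 3. The list mean was 0.39 on array 2 and 0.71 to 1.12 on the others. DDIT4, an inhibitor of mTORC1, read 2263, 2122 and 3070 in untreated and 6138, 1729, 3762 and 3753 in hypoxic cells, with array 2 below the untreated range. The difference was not called (log2 0.51 ± 0.34), though it was called without that array. MXI1, a MYC antagonist that HIF induces and a member of another list, read 103, 130.1 and 147 in untreated against 771, 241, 478 and 514 in hypoxic cells (log2 1.85 ± 0.30).

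Respiratory complex I had 10 of 23 tested genes lower and 0 higher, with a median of -0.67. NDUFS7, a subunit that carries an iron-sulfur cluster, read 192, 175 and 202 in untreated against 59.3, 147, 54.6 and 10 in hypoxic cells, and NDUFV1, which binds NADH, fell from 1842, 1621 and 1765 to 887, 1260, 832 and 469.5. Neither overlapped between groups, with array 2 nearest the untreated arrays and array 4 lowest (log2 -1.87 ± 0.50 and -1.09 ± 0.28). In a fit of these 7 arrays alone NDUFS7 was not called. Complexes II to V had 9 of 23 lower and 0 higher, among them CYC1 and UQCRC1 of complex III (log2 -1.13 ± 0.29 and -1.06 ± 0.23). The tricarboxylic acid cycle had 11 of 19 lower and 0 higher. PC, which makes oxaloacetate from pyruvate, read 73.3, 92.5 and 93.2 in untreated against 28.8, 27, 11.1 and 18 in hypoxic cells (log2 -1.89 ± 0.31), and DLAT of the pyruvate dehydrogenase complex and SUCLG1, a succinyl-CoA ligase subunit, fell with it (log2 -1.29 ± 0.30 and -1.16 ± 0.22). Mitochondrial ribosomal proteins had 16 of 25 lower and 0 higher, with a median of -0.52. Leaving out hypoxic CD44lo array 4 left 6 genes of complex I, 5 of complexes II to V, 4 of the cycle and 7 ribosomal proteins called. Leaving out untreated array 1, 2 or 3 left 4, 5 and 4 of complexes II to V, 4, 5 and 5 of the cycle and 8, 10 and 9 ribosomal proteins. ISCU, a scaffold for iron-sulfur clusters, fell from 247, 252 and 206 to 141, 123, 125 and 105 (log2 -0.90 ± 0.23). ISCU and MXI1 come from a list of oxygen-dependent respiratory chain regulators with 7 tested. In it 1 was called higher, 1 lower and 5 not called, with a median of -0.13, beside 10.7% higher and 11.7% lower over all genes tested.

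Cell division genes fell without exception in both lists that hold them. All 19 tested mitotic cyclins, kinases and regulators and all 27 tested spindle, kinetochore and checkpoint genes were called lower, whichever array was left out and under every other setting. PTTG1, which encodes securin, read 982, 981 and 1216 in untreated cells and 264, 98.5, 22 and 35.8 in hypoxic CD44lo cells (log2 -3.85 ± 0.63, adjusted p = 0.000227). NEK2, a centrosomal kinase, read 766, 714 and 906 in untreated against 271, 89.7, 30.4 and 30.6 in hypoxic cells (log2 -3.41 ± 0.61). CCNB1, the mitotic cyclin B1, read 910.4, 963 and 952 in untreated against 221, 194, 83.3 and 98 in hypoxic cells (log2 -2.74 ± 0.36). Untreated arrays were tightly grouped for these genes, whereas hypoxic arrays 3 and 4 were below arrays 1 and 2 for all of them. Averaged over the spindle list, the log2 level relative to untreated cells was -1.78 and -1.92 on arrays 1 and 2 and -3.29 and -3.31 on arrays 3 and 4. MKI67, a proliferation marker, fell (log2 -2.92 ± 0.44), as did FOXM1 and MYBL2, which drive mitotic transcription (log2 -3.00 ± 0.42 and -2.98 ± 0.40), and KIF20A, a kinesin (log2 -3.40 ± 0.57). In bulk samples a smaller share of dividing cells and less of each transcript per cell cannot be told apart.

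Replication genes fell too, in 23 of 26 tested, with a median of -1.63 and 20 to 23 called without any 1 array. MCM10, which helps open the origin, read 646, 516 and 346 in untreated against 30.8, 249.8, 71.2 and 49.6 in hypoxic cells (log2 -2.66 ± 0.50). PCNA, the sliding clamp of DNA polymerases, read 886, 869 and 629 in untreated against 156, 568, 207 and 139 in hypoxic cells (log2 -1.78 ± 0.45). Here array 2, not array 1, was the hypoxic array nearest the untreated ones, and the list mean was -0.80 on array 2 against -1.72 to -2.16 on the others. POLE2, a polymerase epsilon subunit, fell as well (log2 -2.56 ± 0.38). Nucleotide synthesis had 8 of 12 lower, with TYMS (thymidylate synthase) at log2 -2.34 ± 0.37, RRM2 (ribonucleotide reductase) at -2.38 ± 0.45 and DTYMK (thymidylate kinase) at -1.99 ± 0.29. E2F2 and E2F8, transcription factors of the G1 to S transition, were lower (log2 -2.17 ± 0.42 and -2.06 ± 0.47). Of the G1 list, 10 of 15 were lower and 1, the kinase CDK6, was higher (log2 1.55 ± 0.23). Homologous recombination and Fanconi genes were lower in 8 of 12, such as FANCI (log2 -2.59 ± 0.41) and BLM, a helicase (-2.41 ± 0.44).

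Cyclin-dependent kinase inhibitors did not move as a block. CDKN2B, which encodes p15, read 19.7, 23.8 and 19.6 in untreated against 181, 158, 153 and 383 in hypoxic cells (log2 3.04 ± 0.44, adjusted p = 8.2e-05). CDKN1A, which encodes p21, read 56, 56.9 and 49.8 in untreated against 187, 366, 398 and 742 in hypoxic cells, lowest on array 1 and highest on array 4, with no overlap (log2 2.71 ± 0.43). CDKN1B, which encodes p27, differed by log2 0.21 ± 0.28 and was not called. Of the 17 tested p53 targets 4 were higher and 0 lower, with a median of -0.08. PLK2 and GADD45A were among them (log2 2.02 ± 0.48 and 1.37 ± 0.33). MDM2, the p53 ubiquitin ligase, and SFN were lower on every hypoxic array without passing the threshold (log2 -0.57 ± 0.25 and -0.59 ± 0.26). All hypoxic arrays lay below all untreated arrays for these 2 of the 17 targets and for 16.4% of all genes tested. MYC differed by log2 -0.18 ± 0.15 and was not called.

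Promoters of cell division genes are known to share the CHR element (TTTGAA or TTCGAA) and CCAAT boxes. In the 250 bases before the start, on either strand, CHR letters occurred in 20 of 40 promoters of the mitotic and spindle genes called lower, CCAAT in 29 and both in 17. Among all tested genes the shares were 9.93%, 34.9% and 3.95%, and among all tabulated promoters 14.6%, 33.0% and 5.24%. For replication genes called lower, CHR letters occurred in 1 of 20 and CCAAT in 13. A CHR and a CCAAT match can share 1 base. A CCAATTGG counts as a CCAAT match on each strand, as in PTTG1 below, where these matches overlap. The 3 mitotic and spindle genes with the deepest falls are shown with both motifs in capitals: PTTG1 at chr5:160421605-160421854 (plus strand), DLGAP5, a spindle protein, at chr14:55191586-55191835 (minus strand), which fell (log2 -3.44 ± 0.59), and NEK2 at chr1:211675622-211675871 (minus strand):
PTTG1: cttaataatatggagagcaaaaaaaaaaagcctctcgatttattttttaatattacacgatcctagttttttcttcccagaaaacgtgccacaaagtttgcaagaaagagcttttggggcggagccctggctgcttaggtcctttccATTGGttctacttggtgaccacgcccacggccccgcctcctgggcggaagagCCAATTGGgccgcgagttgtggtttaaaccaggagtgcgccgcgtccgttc
DLGAP5: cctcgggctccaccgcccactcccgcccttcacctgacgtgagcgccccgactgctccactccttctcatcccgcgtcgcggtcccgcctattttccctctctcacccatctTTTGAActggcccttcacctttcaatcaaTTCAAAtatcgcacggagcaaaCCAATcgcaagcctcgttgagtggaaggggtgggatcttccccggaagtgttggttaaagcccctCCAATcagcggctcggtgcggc
NEK2: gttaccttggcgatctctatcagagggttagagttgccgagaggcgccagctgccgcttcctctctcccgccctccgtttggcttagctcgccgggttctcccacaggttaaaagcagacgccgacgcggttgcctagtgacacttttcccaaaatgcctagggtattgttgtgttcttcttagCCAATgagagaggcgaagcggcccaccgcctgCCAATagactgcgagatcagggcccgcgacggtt
DLGAP5 held 2 CHR matches and 2 CCAAT matches, PTTG1 held 3 CCAAT matches and NEK2 held 2, both with 0 CHR matches in this window.

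**Figure D3:**
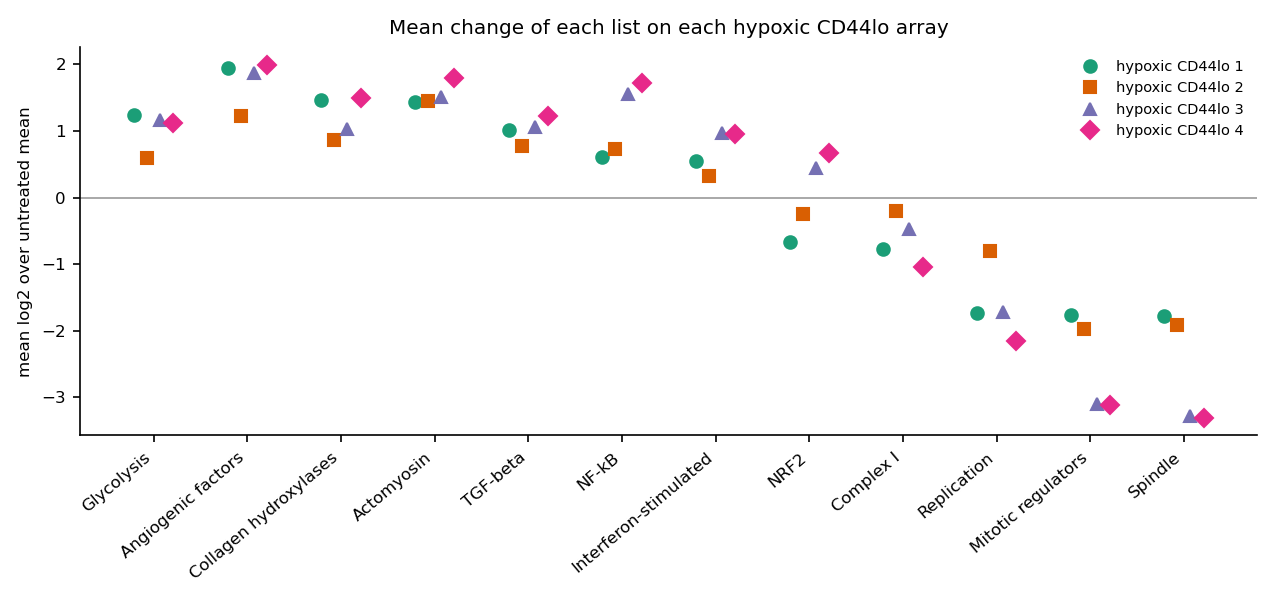
Points give, for each hypoxic CD44lo array, the mean over tested members of a list of log2(signal + 4.2) minus the untreated mean (y axis), by list (x axis). Array 2 is nearest to 0 for glycolysis (0.59, others 1.11 to 1.24) and replication (-0.80), while arrays 3 and 4 separate from arrays 1 and 2 for the mitotic, spindle and NF-kB lists.

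Contractile and cytoskeletal genes rose in 15 of 23 tested, with a median of 0.92 and 0 lower, and in 13 to 16 when any 1 array was left out. ACTA1, the skeletal muscle actin, read 6.5, 7.2 and 7.7 in untreated cells, close to the offset, and 649.8, 289, 879 and 1270 in hypoxic CD44lo cells. The groups did not overlap (log2 5.91 ± 0.46, adjusted p = 7.19e-08), and the size of this rise depends on the offset. MYL9, a regulatory myosin light chain, read 17.3, 22.8 and 27.9 in untreated against 1315, 1156, 1168 and 1882 in hypoxic cells (log2 5.68 ± 0.41), and array 2 was similar to arrays 1 and 3. The smooth muscle actins ACTA2 and ACTG2 rose by log2 4.14 ± 0.39 and 3.34 ± 0.37, CALD1, which encodes caldesmon, by 2.60 ± 0.23, and TAGLN, an actin-binding protein, by 1.93 ± 0.36. ACTB, the cytoplasmic actin, differed by log2 0.24 ± 0.21 and was not called. Actin genes are very similar in sequence, and signal shared between their probe sets was not tested.

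Serum response factor binds the CArG box, an element of many muscle genes. It occurred in 4 of 13 promoters of actomyosin genes called higher, in 3 of 7 of those not called, in 1.08% of all tested genes and in 1.14% of all promoters in the table. The promoters of the 3 actins are shown because they had the largest rises of this list with an entry used here, with the box in capitals. They lie at chr1:229434095-229434344 (minus strand, ACTA1), chr10:88991338-88991587 (minus strand, ACTA2) and chr2:73892758-73893007 (plus strand, ACTG2):
ACTA1: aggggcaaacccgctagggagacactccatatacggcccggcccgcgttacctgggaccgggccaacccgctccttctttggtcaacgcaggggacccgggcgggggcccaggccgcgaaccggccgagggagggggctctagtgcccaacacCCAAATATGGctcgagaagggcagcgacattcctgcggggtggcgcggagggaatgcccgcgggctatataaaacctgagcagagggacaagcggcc
ACTA2: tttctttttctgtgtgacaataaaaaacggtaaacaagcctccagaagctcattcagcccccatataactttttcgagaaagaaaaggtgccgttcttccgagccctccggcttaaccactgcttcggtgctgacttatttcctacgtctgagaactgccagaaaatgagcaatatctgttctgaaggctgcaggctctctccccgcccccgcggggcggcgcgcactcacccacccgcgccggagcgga
ACTG2: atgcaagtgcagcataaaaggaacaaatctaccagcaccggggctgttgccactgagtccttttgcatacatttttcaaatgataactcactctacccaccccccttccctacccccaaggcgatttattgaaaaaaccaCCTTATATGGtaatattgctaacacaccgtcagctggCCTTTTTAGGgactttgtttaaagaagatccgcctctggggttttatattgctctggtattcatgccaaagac
ACTA1 held 1 box, 88 bases from its last base to the start, ACTG2 held 2 and ACTA2 held 0 in this window.

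Genes of caveolae, hemidesmosomes and integrins were called higher in part. Of caveolar genes 3 of 4 tested were higher, of laminin-332 and hemidesmosome genes 3 of 6 and of matrix-binding integrins 6 of 9, with 0 lower in each. CAV1, the coat protein of caveolae, read 32.9, 40.1 and 87.9 in untreated against 1719, 1067, 782 and 1882 in hypoxic cells (log2 4.59 ± 0.37), and CAV2, its partner, rose by 2.38 ± 0.38. LAMB3, a chain of laminin-332, read 23.7, 15.6 and 53.9 in untreated against 420, 187, 322 and 418 in hypoxic cells (log2 3.35 ± 0.36), and the hemidesmosome genes DST and ITGB4 rose by log2 2.04 ± 0.35 and 1.14 ± 0.23. The integrins called higher included ITGB8 (log2 3.00 ± 0.40), ITGA2, a collagen receptor (2.27 ± 0.41), ITGAV (0.91 ± 0.17) and ITGB1 (0.72 ± 0.16).

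Of 8 listed basal keratins 3 were tested and called higher, 4 had no probe set of their own here, and KRT14 lay below the filter in both groups. Of 5 tested luminal keratins 0 were called higher and 1 lower, although the hypoxic arrays lay above all untreated arrays for 2 of the 5 (15.2% of all genes). The difference between the lists was not tested. KRT5, the defining basal keratin, read 5.4, 10.9 and 0.8 in untreated against 145, 54.7, 83.8 and 126 in hypoxic cells (log2 3.48 ± 0.52), so it entered the test through the groups where it was higher. KRT15 rose from 79.8, 51.9 and 80.5 to 420.5, 197, 314 and 375 (log2 2.11 ± 0.32) and KRT16 by log2 2.93 ± 0.69. KRT23 was the luminal keratin called lower (log2 -1.52 ± 0.42), but not without untreated array 3. Of 13 mesenchymal markers and transition factors, 6 were tested, 3 of them called higher and 0 lower, with a median of 1.25. FN1, fibronectin, read 147, 219.5 and 486 in untreated against 4702, 2560, 2122 and 3900 in hypoxic cells (log2 3.63 ± 0.46), MMP2, a gelatinase, rose from 1.1, 4 and 4.2 to 42.8, 4.9, 29.1 and 55.7 (log2 2.09 ± 0.53), and TGFBI, a matrix protein, rose by log2 1.06 ± 0.32, a call lost without hypoxic CD44lo array 1 or 4 or any untreated array. MMP2 lay below the filter level in untreated cells and entered the test through groups where it was high, where a fall could not be seen. The other 7 lay below the filter, among them VIM, which encodes vimentin, at 0.6 to 2 on all arrays except hypoxic CD44lo array 3 (6) and array 4 (15). TWIST1, also below it, read 4.8, 1.2 and 12.7 in untreated against 1.2, 0.6, 1.7 and 1.5 in hypoxic cells. VIM and TWIST1 were chosen after their values were seen. Of the epithelial junction genes 6 of 17 were higher and 0 lower, but 3 without untreated array 1. They included DSP, which encodes desmoplakin (log2 1.54 ± 0.18), and PKP2, another desmosome protein (2.02 ± 0.34). CDH1, E-cadherin, read 2.3, 3.9 and 5.2 in untreated against 35.4, 8.9, 22.7 and 19.9 in hypoxic cells, low signals on every array, and its call (log2 1.61 ± 0.46) was lost without untreated array 1 and when all its probe sets were averaged.

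Of 14 luminal and apocrine transcription factors 2 were lower and 1 higher, beside 11.7% lower and 10.7% higher over all genes tested. TFAP2B, a transcription factor of the AP-2 family, read 139, 87.2 and 106 in untreated against 2.6, 3.9, 1.8 and 1.3 in hypoxic cells, signals under the offset on every hypoxic array (log2 -4.11 ± 0.62, adjusted p = 0.000121). XBP1, a factor of secretory cells, fell (log2 -1.64 ± 0.39), though not when all its probe sets were averaged. The single riser was lost without hypoxic CD44lo array 3 or 4 or any untreated array. Among secretory genes 3 of 13 were lower and 0 higher. AZGP1, a secreted zinc-binding glycoprotein, read 336, 265 and 447 in untreated against 40.2, 46.4, 39.8 and 48.9 in hypoxic cells, a narrow range in hypoxic cells (log2 -2.85 ± 0.35). SCGB2A2, mammaglobin, and SLPI, a protease inhibitor, also fell (log2 -2.86 ± 0.64 and -1.16 ± 0.31).

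Receptors and ligands of growth factor pathways differed within each family. EGFR read 569.6, 569 and 747 in untreated against 2725, 1316, 1745 and 1183 in hypoxic cells (log2 1.40 ± 0.22), ERRFI1, a feedback inhibitor of ERBB receptors, rose by 1.81 ± 0.30, and the ligand gene NRG2 fell (log2 -2.81 ± 0.45). In the ERBB list 4 of 8 were called higher and 1 lower, and 2 were higher without hypoxic CD44lo array 4 or any untreated array. Of ERBB2 and its tested amplicon neighbours, 12 genes in all, 0 were called, and 4 were called lower without hypoxic CD44lo array 2. The Notch ligand JAG1 read 43.7, 61 and 43.2 in untreated against 639.8, 447, 619.6 and 984 in hypoxic cells (log2 3.62 ± 0.43). HEY1, a Notch target, and NOTCH3, a receptor, rose by log2 2.72 ± 0.25 and 1.29 ± 0.17. Of the 12 tested genes of the Notch list 4 were called higher, 1 lower and 7 not called, with a median of 0.27. The lower call was lost without hypoxic CD44lo array 1 or 3 or any untreated array.

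TGF-beta and activin genes were called higher in 13 of 19 tested, with a median of 0.90, and lower in 1. The ligands parted: TGFB2 read 84.5, 87.1 and 105 in untreated against 823, 602, 692 and 1134 in hypoxic cells (log2 3.05 ± 0.31), whereas TGFB3 read 401, 421 and 301 in untreated against 177, 209, 80.5 and 35.5 in hypoxic cells (log2 -1.81 ± 0.43). Neither overlapped between groups. INHBA, the activin A subunit, read 2.9, 4.9 and 1 in untreated against 74.7, 12.8, 479 and 947 in hypoxic cells, with arrays 3 and 4 far above arrays 1 and 2 and a large standard error (log2 4.5 ± 1.0, adjusted p = 0.00311). TGFBR2, the type II receptor, rose by log2 1.46 ± 0.23. The number called higher was 8 without hypoxic CD44lo array 4 and 7 without untreated array 1 or 2. In the IGF list 7 of 10 were higher and 1 lower. IRS2 and IRS1, adaptors of the insulin and IGF1 receptors, rose by log2 3.20 ± 0.55 and 1.49 ± 0.31, and INSR, the insulin receptor, by 1.44 ± 0.32. Among the binding proteins, IGFBP5 rose by log2 1.46 ± 0.22, and IGFBP2 read 54.2, 41.2 and 98.8 in untreated and then 2.5, 4.9, 2.2 and 3.7 in hypoxic cells, mostly under the offset (log2 -3.12 ± 0.64).

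Both CXCL12 receptors were called higher, while CXCL12 itself, at 1.1 to 5.4 on all 7 arrays, lay below the filter. CXCR4 read 58.8, 19.8 and 20.4 in untreated against 1207, 585, 851 and 1059 in hypoxic cells (log2 4.75 ± 0.40, adjusted p = 2.41e-07), and ACKR3, a scavenging receptor, read 7, 5.8 and 2.4 in untreated against 439.9, 53, 271 and 623 in hypoxic cells (log2 4.83 ± 0.60, adjusted p = 1.96e-05). Array 2 was the lowest hypoxic array for both and remained above all untreated arrays. ACKR3 was below the filter level in untreated cells, so it entered the test through the groups where it was high. Matricellular genes were higher in 5 of 7, among them CCN5 (log2 3.10 ± 0.51) and CCN1 (1.27 ± 0.29). In the list of plasminogen activation and proteases 5 of 13 tested were higher, 0 lower and 8 not called. Of these, F3, tissue factor, rose by log2 2.15 ± 0.38, PLAUR, the urokinase receptor, by 1.38 ± 0.35 and TIMP1, a metalloproteinase inhibitor, by 1.49 ± 0.32. SOX9, a transcription factor of progenitor cells, read 172, 158 and 190.3 in untreated against 2397, 632, 863 and 1977 in hypoxic cells (log2 2.85 ± 0.36), and SOX4 rose by 1.61 ± 0.22. Both come from a list of genes associated with stem cells, in which 4 of 12 tested were higher, 0 lower and 8 not called.

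Inflammatory genes were less even. Of 15 tested NF-kB and cytokine genes 8 were higher and 0 lower, with 3 left without untreated array 1 and 4 without untreated array 2. CCL2, a chemokine for monocytes, read 54.3, 50.5 and 57.3 in untreated against 153, 325, 394 and 519 in hypoxic cells (log2 2.47 ± 0.55). TNFAIP3, a feedback inhibitor of NF-kB, rose by log2 2.02 ± 0.39. The list mean was 0.61 and 0.73 on arrays 1 and 2 and 1.56 and 1.72 on arrays 3 and 4, the arrays on which mitotic genes were lowest. Of 15 interferon-stimulated genes 6 were higher, among them IRF9, a subunit of the interferon-induced transcription complex (log2 1.56 ± 0.28). The number was 1 without hypoxic CD44lo array 4, 2 without hypoxic CD44lo array 3 or untreated array 1 and 3 without untreated array 2 or 3. Antigen presentation had 4 of 13 higher, such as HLA-C (log2 1.57 ± 0.34), and 1 without untreated array 1. Markers of immune cells gave 0 calls among 4 tested. Their 12 measured members summed to 129 to 157 on untreated and 210.0 to 297 on hypoxic CD44lo arrays, with PTPRC, the pan-leukocyte antigen, at 1.1 to 11.1 on all 7 arrays (also chosen after seeing its values). Of 4 tested stromal and endothelial markers 2 were higher, KDR (3.2, 3 and 4.2, then 163, 9.5, 27.4 and 17.4) and CDH5 (31.1, 36.2 and 33, then 99.5, 72.6, 63.7 and 108). KDR was not called in a fit of these 7 arrays alone. The 13 members of that list summed to 94.5 to 109 on untreated and 152.5 to 361 on hypoxic CD44lo arrays. Of its members below the filter, DCN and LUM read 0.1 to 5.4 on all 7 arrays. TEK read 0.1, 0.4 and 0.6 in untreated against 5.7, 0.5, 13.8 and 23.4 in hypoxic cells. COL1A2 read 2.6, 3.7 and 7.8 in untreated against 8.4, 7.6, 14.6 and 19.3 in hypoxic cells. These members were chosen after their values were seen. The part of other cell types in these results was not tested.

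Endoplasmic reticulum and lipid genes split within their lists. ERO1A, the oxidase that supplies disulfide bonds and a known hypoxia target, read 315, 284 and 327 in untreated against 2696, 872, 2007 and 2859 in hypoxic cells (log2 2.62 ± 0.33). Other folding genes were lower: SDF2L1 and HYOU1, chaperone components, fell (log2 -1.83 ± 0.29 and -1.18 ± 0.26), and 7 of 18 in the list were lower against 2 higher. ERO1A alone was higher when any array other than hypoxic CD44lo array 2 was left out. The number lower was 4 without hypoxic CD44lo array 1, untreated array 2 or untreated array 3, and 3 without hypoxic CD44lo array 4 or untreated array 1. In the amino acid response driven by ATF4, 4 of 17 were higher, including ATF3 (log2 2.36 ± 0.37), and 3 were lower, including MTHFD2, a mitochondrial folate enzyme (-0.71 ± 0.17); 1 was lower without untreated array 2. Fatty acid synthesis had 7 of 13 lower and 1 higher, the latter called only with all 7 arrays or without hypoxic CD44lo array 2. SREBF1, the transcription factor of this pathway, read 297, 297 and 182 in untreated against 75.8, 103, 70.4 and 28.7 in hypoxic cells (log2 -1.92 ± 0.32), and ACACA, acetyl-CoA carboxylase, and SCD, a desaturase, fell with it (log2 -1.41 ± 0.21 and -1.08 ± 0.20). Sterol synthesis had 7 of 15 lower and 2 higher, with 2 lower without untreated array 1 and 3 without untreated array 2. INSIG2 and INSIG1 both hold the sterol sensor SCAP in the endoplasmic reticulum. INSIG2 rose from 265, 251 and 244 to 885, 480.5, 795 and 691 (log2 1.44 ± 0.19), while INSIG1 read 459.5, 462 and 136 in untreated against 169, 71.2, 71.3 and 76.1 in hypoxic cells. Untreated array 3 was low for INSIG1 and overlapped with the hypoxic arrays, and its call (log2 -1.72 ± 0.50) was lost without untreated array 1 or 2.

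Other single genes are given here. Those outside the lists were picked for large changes between groups that did not overlap, so their separation was part of the choice. Of these, TCIM and AK4 lay below the filter level in untreated cells and entered the test through groups where they were high. BHLHE40, a repressor of clock genes and a known hypoxia target, read 159, 117 and 75.5 in untreated against 1192, 388, 1184 and 1539 in hypoxic cells (log2 3.05 ± 0.41). Core and linker histones, variants included, had 6 of 12 lower and 4 higher. Outside that list, the linker histone gene H1-5 read 448, 374 and 399.8 in untreated against 66.6, 171, 12 and 2.1 in hypoxic cells (log2 -3.61 ± 0.76). Within it, H2AC6 rose by log2 1.70 ± 0.32 and H4C8 by 1.17 ± 0.24. The number higher was 2 without untreated array 1 or 3. FTL, the ferritin light chain, was the one NRF2 gene of 14 called higher (log2 1.11 ± 0.25). The mean over that list was -0.67 and -0.25 on arrays 1 and 2 and 0.44 and 0.66 on arrays 3 and 4, so its members were spread by array rather than by group. Metallothionein and zinc genes gave 0 calls among 8. Outside the lists, TCIM, an enhancer of Wnt signalling, read 5.6, 6.7 and 11.5 in untreated against 554, 219, 287 and 624 in hypoxic cells (log2 5.03 ± 0.47), AK4, a mitochondrial adenylate kinase, read 4.3, 3.5 and 3.9 in untreated against 124, 29.6, 364 and 331 in hypoxic cells, lowest on array 2 (log2 4.23 ± 0.65), and THRSP, a regulator of lipid synthesis, fell from 84.3, 129 and 84.2 to 21.8, 9.8, 3.9 and 2.1 (log2 -3.12 ± 0.49).

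The same hypoxic CD44lo arrays were then set against CD44lo cells sorted after epirubicin, an anthracycline, which share the sort. In this comparison 2187 genes (16.9%) were called, 915 higher (7.08%) and 1272 lower (9.84%). All 19 mitotic and all 27 spindle genes were lower in hypoxic cells here too, together with 17 of 26 replication genes. Glycolysis had 17 of 23 higher and 0 lower. For CCNB1 the difference was log2 -2.73 ± 0.33, and epirubicin-treated CD44lo cells differed from untreated cells by -0.01. EGLN3 differed by log2 4.26 ± 0.30, SLC2A3 by 4.27 ± 0.58, LOXL2 by 4.08 ± 0.24, CXCR4 by 4.28 ± 0.37, ACTA1 by 5.38 ± 0.43 and MYL9 by 4.22 ± 0.38. None of these 6 genes was called between epirubicin CD44lo and untreated cells, where 365 genes (2.82%) were called. That comparison shares the 3 untreated arrays with the main one, so the values stand only side by side, and its count was 74 without untreated array 1 and 90 without untreated array 2.

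Several genes called against untreated cells after both treatments differed little between them. TGFB3 differed by log2 0.01 ± 0.40 between hypoxic and epirubicin CD44lo cells, HLA-C by 0.04 ± 0.32, IRF9 by 0.09 ± 0.26 and FTL by 0.01 ± 0.23, and none of these differences was called. THRSP differed by -0.43 ± 0.46 (adjusted p = 0.575), with log2 changes from untreated cells of -3.12 in hypoxic and -2.69 in epirubicin-treated cells. TCIM was 2.68 above untreated cells after epirubicin and 5.03 after hypoxia on the log2 scale, with a called difference of 2.35 ± 0.44. SIGLEC6, a sialic acid-binding receptor, was called in opposite directions after the treatments. It read 323, 190.2 and 127 in untreated and 1974, 2021, 1661 and 1189 in hypoxic CD44lo cells (log2 3.05 ± 0.50), changed by -2.23 after epirubicin, and differed by 5.28 ± 0.46 between the treatments. Other genes were called higher after epirubicin and not called after hypoxia. GDF15, a stress cytokine, differed by log2 -4.44 ± 0.59 between hypoxic and epirubicin CD44lo cells, against changes from untreated cells of 3.89 with epirubicin and -0.54 with hypoxia. S100A7, a calcium-binding protein, differed by -4.62 ± 0.67 and PIGR, the polymeric immunoglobulin receptor, by -3.44 ± 0.52. Of the ATF4 list 8 of 17 genes and of the cytosolic tRNA synthetases 8 of 11 were lower in hypoxic than in epirubicin CD44lo cells, and 0 of either list were higher.

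**Figure D4:**
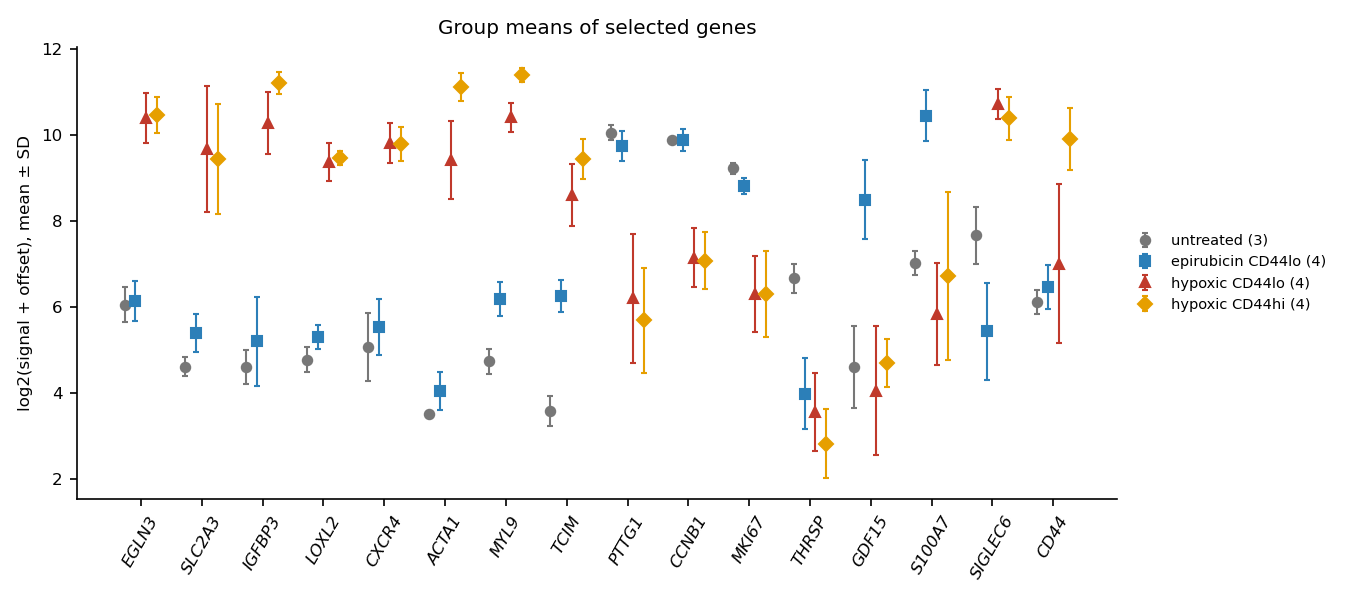
Markers show the mean and bars the SD of log2(signal + 4.2) in untreated (n = 3), epirubicin CD44lo, hypoxic CD44lo and hypoxic CD44hi cells (n = 4 each) for the genes on the x axis. Both hypoxic groups lie together for EGLN3 and CCNB1, away from untreated and epirubicin CD44lo cells, while CD44 itself is highest in hypoxic CD44hi cells.

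Hypoxic CD44lo and hypoxic CD44hi cells were not separated gene by gene. With limma 0 of 12925 genes were called between them (0%), 889 had an unadjusted p under 0.05, 4 were called with the replicate number as a block, 1 with an offset of 16 and 6 without hypoxic CD44lo array 4. CD44, the sort marker, averaged 1042 ± 481 (SD, n = 4) in the CD44hi fraction and 205 ± 194 (SD, n = 4) in the CD44lo fraction (log2 2.90 ± 0.65, adjusted p = 0.386). On the single arrays it read 78.8, 52.4 and 67 in untreated and 87.5, 20.5, 256 and 456 in hypoxic CD44lo cells. CD44lo array 2 was thus below and arrays 3 and 4 were well above the untreated range, and the difference from untreated cells was not called (log2 0.89 ± 0.70, adjusted p = 0.388), though it was called without array 2. CD24, a surface glycoprotein often read with CD44, differed from untreated cells by log2 -0.01 ± 0.20, with a sign that turned when array 2, 3 or 4 of the hypoxic group or untreated array 3 was left out. EGLN3, CXCR4 and CCNB1 differed between the fractions by log2 0.07 ± 0.30, -0.02 ± 0.37 and -0.07 ± 0.33, and ACTA1 by 1.70 ± 0.43. Missing the threshold does not show that the fractions are alike.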

How the data were processed

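RNA from 19 samples was hybridised to 1 Affymetrix array each, and 7 of them make the comparison described. The deposited intensities are MAS5 signals on a linear scale, per the submitters' processing notes, with no version or settings given in the sources used here. Every array has the same trimmed mean in the deposited values, so a change shared by all genes would not be seen. Of 54675 probe sets, 41091 had 1 gene name, 1801 several and 11721 none. Each gene kept the probe set with the highest mean among those whose names do not end in _x_at. For 419 genes only sets with that ending existed, and the highest of these was kept. Genes needed a signal of at least 16.9 (the table's median) on 3 arrays, and 4.2 (its 25th percentile) was added before log2. limma 3.58.1 in R 4.3.3 fitted 5 group means to 19 arrays, with a variance trend and Benjamini-Hochberg adjustment over 12925 genes; the procedure was tested on simulated data. Quality measures were compared by an exact permutation test.

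The gene lists, members and tests were chosen with earlier results of these data known, and none is independent evidence. Text genes are up to 6 called members of each list in each direction, up to 3 bright uncalled ones, 10 fixed genes, and the 15 largest rises and falls among non-overlapping called genes, with 10 each way in the other comparisons. Of the fixed genes, CA9 had no probe set of its own and was not measured. Promoters are those of RefSeq on GRCh38.p14. Alternatives were the offset, the filter, quantile normalization, the mean of all probe sets, 7 arrays only, no trend, a replicate block and leaving out each array.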

Additional observations from a re-analysis of the deposited data

Results flagged for a closer look

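In sets of 4 hypoxic CD44lo arrays, Dixon's gap test at its 95% critical value was applied to 224 measures, of which chance alone flags about 1 in 20, and 8 had 1 array far from the others. Hypoxic CD44lo array 2 was low for ADM, the vasodilator peptide gene (signal 365.7), for the mean of the angiogenic list (1.22 above untreated on the log2 scale) and for the mean of the demethylase list (0.30). Array 3 was low for ACACA (39.9) and for CAV2 (39.5). Array 4 was high for CALD1 (1228), and its 3' to 5' signal ratio of GAPDH was 0.91. Array 1 was high for INSIG1 (168.7). ADM, CALD1 and CAV2 stayed called higher and ACACA called lower without the array named. No cause was tested.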

How the results depend on the processing

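Hypoxic CD44lo against untreated gave 2903 calls, 2163 to 3262 under the alternatives that kept all arrays and 1625 to 3762 with 1 array left out; 1154 genes kept call and direction under every alternative. The lists held 381 called members, 266 to 437 over all alternatives. Hypoxic CD44lo against epirubicin CD44lo gave 2187 calls, 1569 to 3013 over all alternatives. CD44hi against CD44lo after hypoxia gave 0 calls in limma (889 at an unadjusted p under 0.05), 1 with an offset of 16 and 0 to 6 with 1 array left out. Epirubicin CD44lo against untreated gave 365, 1190 with only the groups compared and 74 to 442 with 1 array left out. The difference of CD24 between hypoxic CD44lo and untreated cells lay between -0.113 and 0.101 with 1 array left out, above 0 without hypoxic CD44lo array 2, 3 or 4 or untreated array 3. The cause was not tested. Of the 141 named genes called, 135 kept the call with any 1 array left out.

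Same-numbered arrays of hypoxic CD44lo and untreated cells did not deviate together (r = -0.277, 0.050 and -0.087 across genes). Against epirubicin CD44lo the values were 0.367, 0.364, -0.072 and 0.182, and against CD44hi -0.041, 0.633, 0.279 and 0.543, so most but not all numbers went together. No comparison had every pair above 0.1, and the numbers were not taken as pairs. With the replicate number as a block the counts were 3262 against untreated, 3013 against epirubicin CD44lo, 4 between CD44hi and CD44lo and 600 for epirubicin CD44lo against untreated. Probe sets near background limit low genes, whose differences shrink with the offset.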

Other observations

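A few gene groups outside the main account changed little or depended on single arrays. Over all genes tested, 11.7% were called lower and 10.7% higher. Between hypoxic CD44lo and untreated cells, 3 of 14 tested ribosome biogenesis genes were called lower, 7 without hypoxic CD44lo array 2, 1 without hypoxic CD44lo array 1 and 0 without hypoxic CD44lo array 4, untreated array 1 or untreated array 2. Mismatch and excision repair genes were called lower for 5 of 12, and for 2 without untreated array 1 and 3 without untreated array 2 or hypoxic CD44lo array 4. Of 15 regulators of mitochondrial biogenesis, 1 was called lower (0 without untreated array 1, 4 without hypoxic CD44lo array 2, 2 without hypoxic CD44lo array 1 or 3) and 0 higher, with a median log2 fold change of -0.32.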
